A study of Drosophila melanogaster with 16 samples.

Results

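A set of 867 adenosines was strongly edited in resting Drosophila S2 cells by a fusion of the RNA-binding protein FMR1 to the catalytic domain of ADAR (FMR1-ADARcd). ADAR enzymes turn adenosine into inosine, which is read as guanosine, so that an edited base appears as an A-to-G change in the transcript. FMR1, the fly orthologue of the protein lost in fragile X syndrome, binds mRNAs, restrains their translation and joins stress granules, the RNA-protein assemblies that form when arsenite or another stress stops translation. Fusing such a protein to the ADAR catalytic domain therefore marks RNAs it has been close to, and the catalytic domain is known to prefer some bases on the 5′ side of its adenosine and to act on double-stranded stretches.

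A site was taken where the call quality was above 250, the edited share over the 14 bulk samples was under 0.95, no edited read was seen in either uninduced sample, and the pooled reads of the 3 S2 replicates in Schneider's medium numbered at least 30 with an edited share of 30% or more. These limits left 867 sites in 581 genes, out of 32873 A-to-G sites in 5003 genes. Of the 14938 sites that met every limit other than the share, 5.8% passed it, and the other 14071 serve below as the sites to compare with. The sites are thus chosen by their share in resting S2 cells, and that share, its spread and its contrast with arsenite in the same libraries are given as a description.

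The groups were bulk S2 cells kept for 4 h in 0.5 mM sodium arsenite (3 samples), bulk S2 cells kept for 4 h in Schneider's medium (3 samples), both after 4 h of 1 mM copper sulphate, and S2 cells with neither copper nor arsenite (1 sample). Dissociated brains of L3 larvae were held for 4 h in 0.5 mM arsenite (3 samples) or in Schneider's (3 samples) after the drug RU486 had been given to the larvae, or in Schneider's without it (1 sample). Single S2 cells in arsenite or in Schneider's came from 2 plates, with 96 wells of each condition on each plate. Their well names are read here as 4 h of induction and then 4 h in arsenite or in Schneider's. All S2 cells carried the fusion behind a copper-inducible metallothionein promoter in a stable clone, and the larvae carried it as a UAS transgene driven by elav-GeneSwitch, that is, in neurons, with brains of many larvae pooled in each sample. In the brain samples a lower edited share per neuron and a larger part of the reads from cells without the fusion cannot be told apart. Reads at the A-to-G sites, counted after identical molecular identifiers were collapsed, numbered 247153 to 458176 per bulk sample. Neuronal marker genes had 2888.3 to 3286.6 reads per 1000000 variant-table reads in brains and 82.7 to 122.1 in S2 cells. Glial marker genes had 420.6 to 537.3 in brains and 29.0 to 79.5 in S2 cells. S2 marker genes separated less, with 1132.3 to 1237.5 in S2 cells and 697.3 to 1015.4 in brains.

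The base before the edited adenosine differed between these sites and the rest. The settings below are the edited base, in capitals, with the base on either side in the orientation of the transcript (T stands for U), for those of the 10 sites with the highest shares in resting S2 cells that do not lie on arm 2R, whose sequences are not printed here. Of the 10, 9 have T in front, among them the 8 shown.
CG2316, 4:186600: tAc
PAPLA1, 2L:8137881: tAt
CG10347, X:11854253: tAt
Past1, 3R:12704198: tAt
CG7600, 3L:11211206: tAc
CG17018, 2L:22366645: tAg
CG31731, 2L:13790084: tAc
Cdc42, X:19698728: tAt

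Among all 867 sites T stood in front of the edited base at 390, or 45.0% (95% Clopper-Pearson interval 41.6 to 48.4), against 33.4% (32.6 to 34.2) of the other 14071 sites. G in front was rare among them, at 19 sites or 2.19% (1.32 to 3.4), against 5.44% (5.07 to 5.82) of the other sites. A stood in front at 27.9% against 32.0%, and C at 24.9% against 29.2%. These intervals cover counting error over sites only, and sites of a gene are not independent. Behind the edited base the difference was smaller. G followed at 49.7% against 51.1% of the other sites, C at 30.3% against 26.0%, A at 9.92% against 11.5%, and T at 10% against 11.4%.

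With both neighbours together, the most frequent settings were tAc with 156 sites (18.0%, against 12.4% of the other sites) and tAg with 143 (16.5% against 11.2%). They were followed by aAg at 16.4%, against 19.0% of the other sites, and cAg at 15.6%, against 17.7%. Seen from the other side, 8.33% of all tAg sites and 8.21% of all tAc sites reached the 30% limit, whereas 5.05% of aAg, 5.15% of cAg and 2.29% of gAg sites did. The share of T in front climbed with the edited share across all 14938 sites. It was 30.5% where no edited read was seen in Schneider's, 32.9% between 5 and 10% edited, 36.7% between 10 and 20%, 39.9% between 20 and 30%, 41.7% between 30 and 40%, 49.0% between 40 and 50%, and 50.6% at 50% or more. G in front ran the opposite way, with 6.59% at the unedited end and 1.92% at the top. The change in these bases is thus gradual and does not start at the 30% limit.

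Editing at these sites in resting S2 cells had a median share of 37.5% (quartiles 33.3 and 45.2, range 30 to 77.2), with a median of 40 reads behind a site. Of the 867, 317 lay between 30 and 35%, 196 between 35 and 40%, 198 between 40 and 50%, 117 between 50 and 60%, and 39 at 60% or more. Just inside the limit were sites in Taf1, CG7185 and Spt6, each with 15 of 50 reads edited (30%). Just outside were sites in Rpn7 and eIF3c with 20 of 67 reads and in Sec31 with 32 of 107 (29.9% each). The limit therefore cuts through a continuum, and counting error alone is wide next to it, with an interval of 17.9 to 44.6 for 15 of 50 reads. The SD over the 3 replicates had a median of 10.9 points at a site, and the binomial SD of so few reads had a median of 13.6 points. The median of SDs taken from 3 values lies below the SD behind them. The lower value therefore does not show that replicates agree more closely than counting error allows. At 386 sites the share was 30% or more in each replicate.

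Summed over the 867 sites, the edited share was 47.1% ± 0.0577 in S2 arsenite and 40.2% ± 0.513 in S2 Schneider's (SD, n = 3 each). In the single cells it was 37.0% ± 0.354 in arsenite and 23.3% ± 1.84 in Schneider's (SD, n = 2 plates each). In the brains it was 20.8% ± 3.53 in arsenite and 12.4% ± 1.34 in Schneider's (SD, n = 3 each). The brain replicates had 24.9%, 19.1% and 18.5% in arsenite and 11.8%, 13.9% and 11.4% in Schneider's, without overlap. At the other 14071 sites the sums were 14% in arsenite and 5.72% in Schneider's for S2 cells, 10.4% and 3.81% for single cells, and 5.06% and 1.99% for brains. The uninduced samples, with 11586 reads of S2 cells and 9333 reads of brains at these sites, had no edited read because the rule asked for none, so that this 0 sets no bound on the background. The median was 12 reads at a site in uninduced S2 cells, a depth at which a count of 0 can go with a share of up to 25%. Only 295 of the 867 had at least 10 reads in each uninduced sample.

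**Figure D1:**
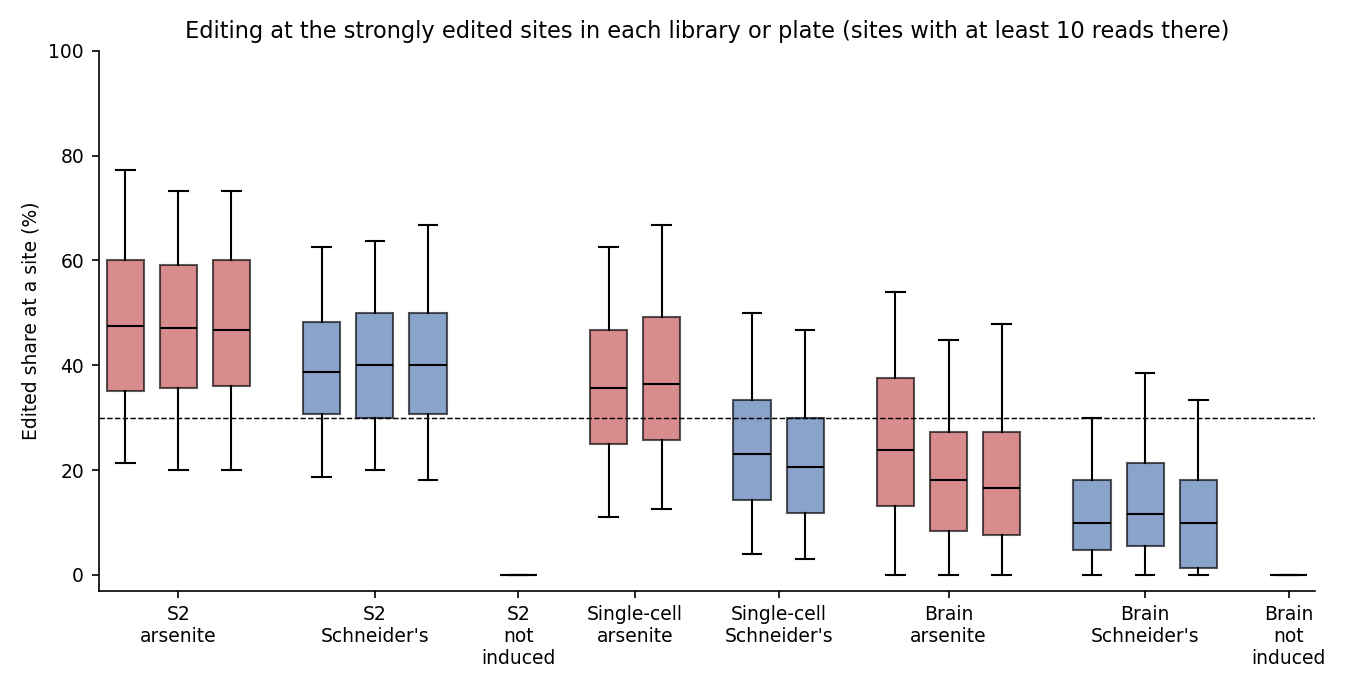
Edited share in percent at the 867 sites in each library or plate, for sites with at least 10 reads there. Each box spans the quartiles with the median as a line, the whiskers reach the 5th and 95th percentiles, red is arsenite and blue is Schneider's, and the dashed line is the 30% limit. The S2 boxes lie highest, with medians of 46.7 to 47.5% in arsenite and 38.8 to 40% in Schneider's, and the brain Schneider's boxes lowest among the induced samples, with medians of 10 to 11.5%.

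The site with the highest share lay in CG2316 (FBgn0039890, chromosome 4 of BDGP6 from 184076 to 193829, reverse strand), at the first position of a codon. It read 7 of 12, 7 of 10 and 17 of 21 edited in the S2 arsenite replicates and 12 of 18, 16 of 17 and 16 of 22 in the Schneider's replicates, which is 72.1% in arsenite and 77.2% in Schneider's (64.2 to 87.3). The site was thus high in every induced S2 sample. A site in Nipped-A, the TRRAP subunit of histone acetyltransferase complexes, had 75% in arsenite and 76.7% in Schneider's, on 16 and 30 reads. PAPLA1, a phosphatidic acid phospholipase, had 60.7% and 75.8%, and p120ctn, a catenin that binds cadherin, had 71.4% and 74.4%. Sites in CG10347, Past1 (an EHD-family ATPase of endocytosis) and CG7600 each had 72.7% in Schneider's, against arsenite shares of 59.5%, 82.4% and 55.3%. The last 3 of the 10 highest lay in CG17018 (71.9% in both conditions), CG31731 (70.0% in both) and the small GTPase Cdc42 (44.4% in arsenite and 69.8% in Schneider's). Of these 10, those in Past1 and Cdc42 lay in 3′ UTRs and the others in coding sequence.

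By the Ensembl 115 annotation, 769 of the 867 sites lay in coding sequence (88.7%, against 87.8% of the other sites), 76 in 3′ UTRs (8.77% against 5.67%) and 10 in 5′ UTRs (1.15% against 5.21%). The remaining 12 were not placed, because the identifiers of their 8 genes had no match in this annotation. All 581 genes were protein-coding by the gene labels in the variant table. The sites were spread over the chromosomes much as the other sites were, with 221 on 3R, 184 on 2R, 166 on 2L, 157 on 3L, 121 on X and 18 on chromosome 4. Within coding sequence the sites were less frequent at the start, with 13.3% in the first 20% of the coding length against 16.7% of the other sites.

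Among the coding sites, position 1 of the codon held 246 sites (32.0%, against 29.1% of the other coding sites), position 2 held 326 (42.4% against 48.0%) and position 3 held 195 (25.4% against 22.8%). An A-to-G change alters the residue at positions 1 and 2, so that 572 coding sites (74.4%) were recoding, while 87 were synonymous and 108 could be either, since the sources used here give only 1 base on each side. At position 2 the 3-base setting is the codon itself. The most frequent change there was tyrosine to cysteine with 94 sites (28.8%, against 20.9% of the other sites), followed by lysine to arginine with 89 (27.3% against 31.7%) and glutamine to arginine with 67 (20.6% against 22.3%). Asparagine to serine had 37 sites and histidine to arginine 23, and 3 sites changed a stop codon to tryptophan.

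Many of the sites shared a gene. Of the 581 genes, 406 held 1 site and 175 held at least 2, and these 175 held 461 sites or 53.2% of the total. The 14938 sites that met every limit other than the share lay in 2824 genes, so sharing a gene is not particular to the strongly edited sites. Annotated transcripts were longer at these sites, with a median of 3970 nt (coding length 2859 nt) against 2502 nt (1677 nt) at the other sites, and their genes held more A-to-G sites of any share, with a median of 20 against 14. CG17018 had the most, with 10 of its 47 sites. Their Schneider's shares ran from 35.8 to 71.9%, and 2 of the 10 were adjacent bases at 22365512 and 22365513 with the same 13 of 33 reads edited. p120ctn followed with 7 of its 15 sites (33.9 to 74.4%), and then came hyd, a HECT-domain ubiquitin ligase, with 6 of 43, IntS1, a subunit of the Integrator complex that processes small nuclear RNAs, with 6 of 31, and LanB2, the laminin gamma chain, with 6 of 27. The genes LanA and LanB1, the laminin alpha and beta chains, poe, Dhc64C, the heavy chain of cytoplasmic dynein, and CG6701 held 5 each. Along a gene the sites lay apart. Neighbouring pairs were a median of 863 bp apart, 18 of 286 pairs were within 10 bp, 49 within 100 bp and 126 more than 1000 bp apart. Sites close enough to share reads are not independent measurements.

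**Figure D2:**
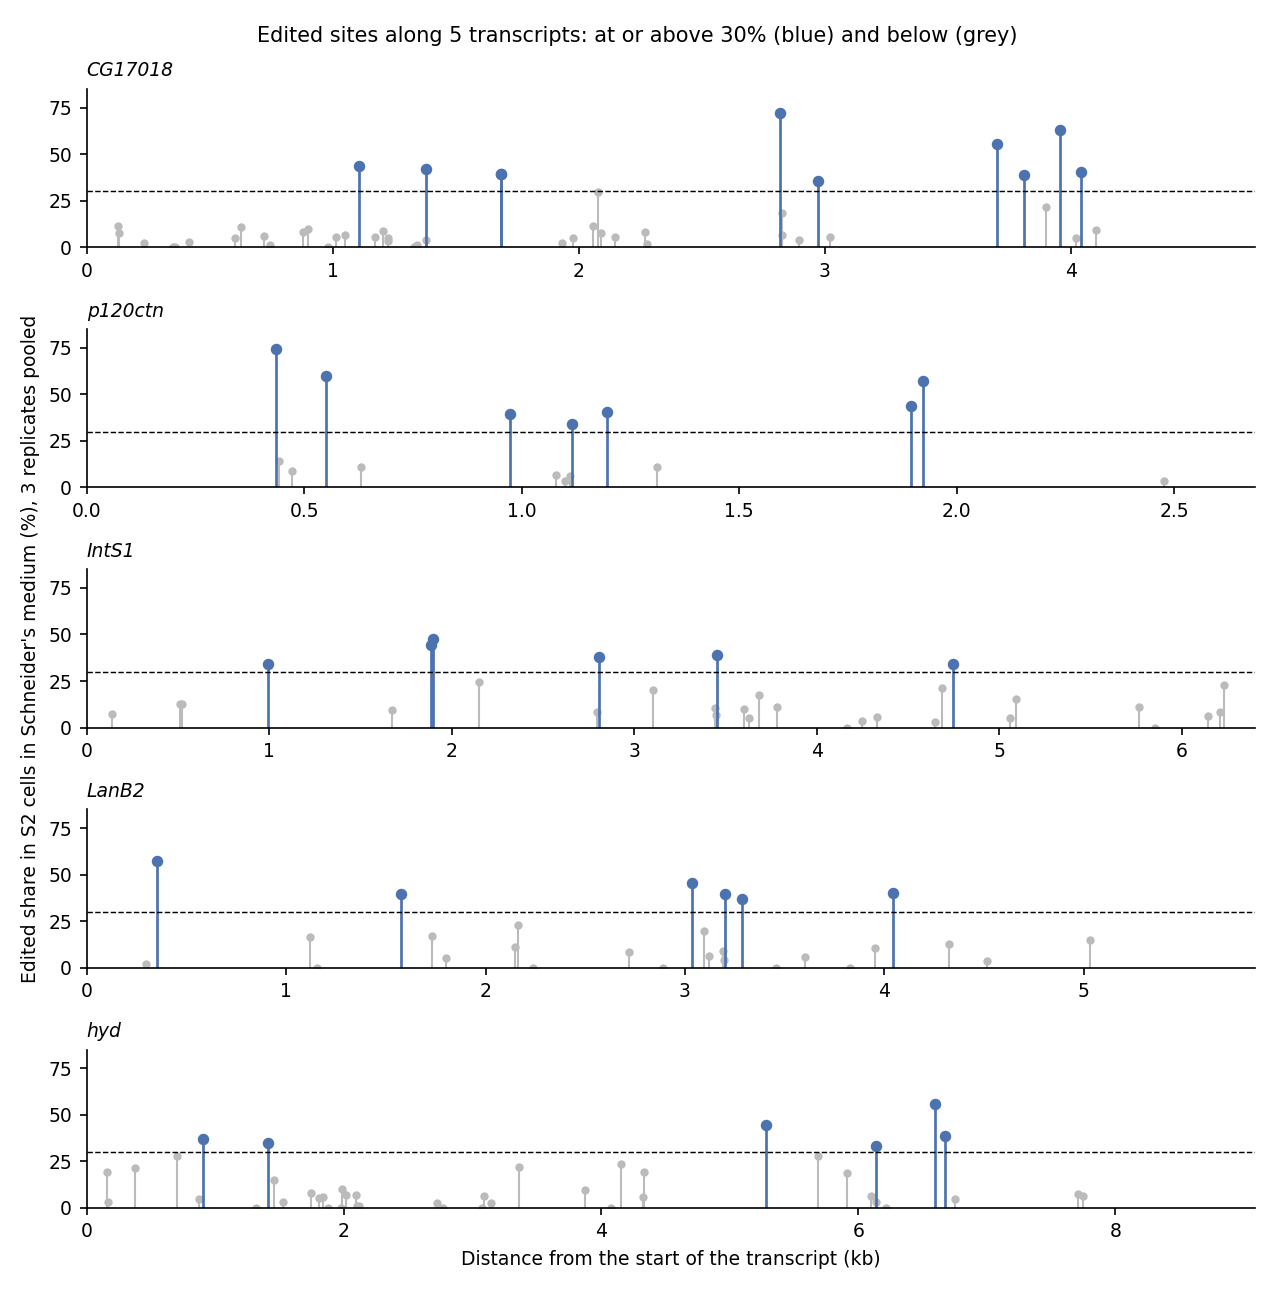
Edited share in pooled S2 Schneider's samples (vertical axis, percent) by distance from the start of the transcript (horizontal axis, kb) for the 5 genes with the most strongly edited sites. Blue points are sites at or above the 30% limit (dashed) and grey points are sites below it. In each gene weakly edited sites lie between the strongly edited ones, and CG17018 carries 10 blue points, the highest at 71.9%.

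Strongly edited sites shared their genes with sites below the limit, 5325 of them in 541 genes. The medians that follow are, by the rule, of sites below the limit only. They therefore cannot show how far strong editing extends along a transcript. The 5325 other sites of genes with a strongly edited site had a median share of 5.0% in S2 Schneider's, against 3.22% for the 8746 sites of genes without one. Within these genes the median was 6.38% at 1 to 50 bp from a strongly edited site, 5.41% at 51 to 200 bp, 5.07% at 201 to 1000 bp and 4.55% farther away.

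Gene lists differed in how many of their sites reached the limit, beside 5.8% over all genes. Genes of the cytoskeleton and its motors had 36 of 446 sites (8.07%) in 22 genes. Among them were Dhc64C with 5, beta-Spec with 4, of which the highest reached 61.0%, and 1 each in Klc, the kinesin light chain (52.9%), and Act5C, an actin (37.0%). Proteasome and ubiquitin genes had 31 of 393 (7.89%), of which hyd held 6, poe 5, and Usp7, a deubiquitinase, 3 with up to 55.6%. Kinases and signalling genes had 24 of 326 (7.36%), with 3 each in Lk6, a kinase of eIF4E, and Tor, the growth-control kinase, and 2 in arm, the fly beta-catenin (up to 59.7%). Cell cycle genes had 14 of 209 (6.7%), of which DNApol-epsilon255 held 4. Chromatin genes had 26 of 402 (6.47%), with 3 each in Top2 and E(Pc) and a share of 59.5% in brm.

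RNA-binding and granule proteins had 29 of 457 sites (6.35%), close to all genes. They included Not1 of the deadenylase complex with 4, Ge-1 of P-bodies with 3, rin, the fly G3BP, with 2 (up to 42.2%), and 1 each in Capr, Atx2, AGO1 and pum (59.5%). FMRP targets named in the wider literature had 10 of 168 (5.95%), which lay in poe, brat, shot and kis. Below the value for all genes were vesicle trafficking with 18 of 370 (4.86%), mitochondrial respiration with 6 of 162 (3.7%), translation factors with 9 of 266 (3.38%), chaperones with 4 of 228 (1.75%) and ribosomal proteins with 0 of 56. The last 2 lists were the most deeply read, with medians of 114 and 193 reads at a site against 49 over all sites, and their median share over all sites was 2.01% and 4.74% against 4.35%.

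**Figure D3:**
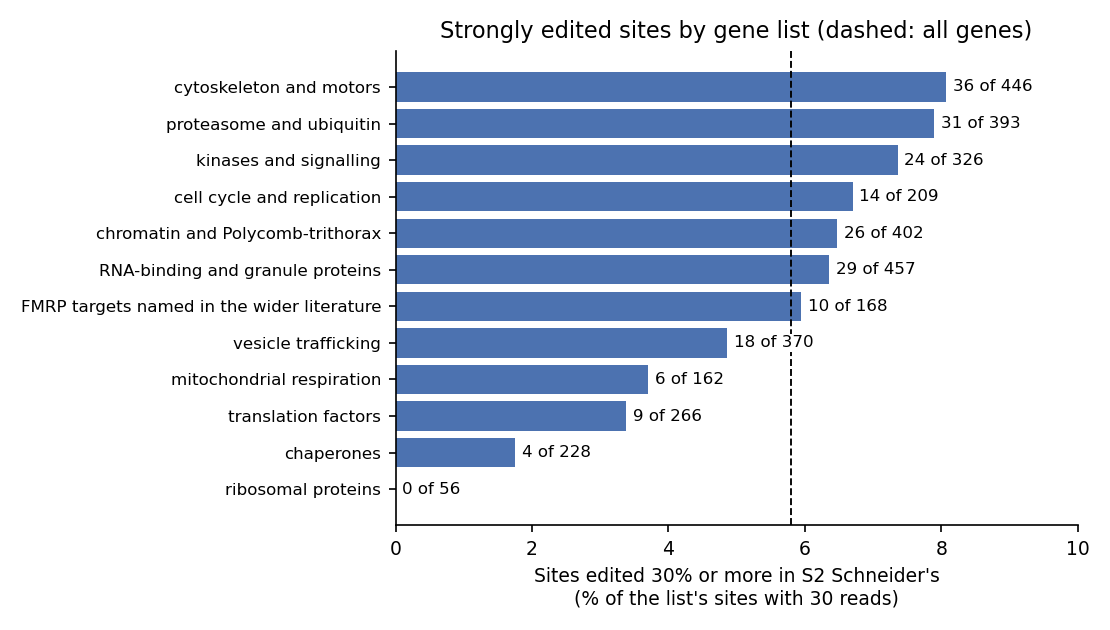
Sites at or above 30% edited in S2 Schneider's as a percentage of the sites of each gene list that met every other limit, with the counts beside each bar. The dashed line marks 5.8% for all genes. Cytoskeleton and motors stand highest at 8.07% and ribosomal proteins at 0 of 56.

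Of the 18 genes listed by name, which are genes named in the study together with Fmr1 and Adar, 4 held a strongly edited site. Over all genes, 581 of the 2824 with a site that met the other limits held one, so the count is near that of all genes. The genes kermit, mira and Nrt had no site that met the other limits. The site in row had 53.6% in S2 arsenite and 40.6% in Schneider's, that in pzg 56.8% and 44.6%, and that in the 5′ UTR of the tyrosine kinase gene Src42A 52.6% and 30.8%. The site in Adar itself (X:1781840) had 212 of 330 reads edited in arsenite and 92 of 202 in Schneider's, 64.2% and 45.5%, and its reads can come from the fusion RNA, which holds a part of this gene. Fmr1 had 20 sites that met the other limits, with a highest share of 27.3%. The 5 sites of Rack1, a ribosome-bound scaffold, reached 17.1% at most, and cbt 14.7%.

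Most of these sites had a higher share in arsenite than in Schneider's in bulk S2 cells, and a smaller part of them than of the other sites did. This contrast shares the Schneider's samples with the rule, so the values are a description. Of the 536 sites with at least 30 arsenite reads, 381 were higher in arsenite, 150 lower and 5 equal, with a median of 46.8% in arsenite and 37.1% in Schneider's and a median difference of 7.14 points. At 11376 other sites 10167 were higher, with medians of 11.9% and 3.33% and a difference of 7.42 points.

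The sites were then chosen on 2 Schneider's replicates and read in the replicate left out. With replicate 1, 2 or 3 left out in turn, S2 arsenite had 46.7%, 45.9% and 46.2% edited reads at these sites. The replicate left out had 35.2%, 35.7% and 35.8%, and the 2 Schneider's replicates that chose the sites 41.1%, 40.9% and 40.5%. The median difference between arsenite and the replicate left out was 13.1, 10.3 and 10.6 points. The difference of 7.14 points was smaller than each of these, but it comes from 536 of the 867 sites. The sets chosen on 2 replicates held 893, 1028 and 926 sites, more than the 308 to 376 left at an unchanged minimum of reads. The figures thus differ in their sites as well as in the replicate read. Against the replicate left out, 380 of 490, 348 of 459 and 376 of 495 sites were higher in arsenite.

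The largest differences in S2 cells are given as a description, among the sites with at least 30 arsenite reads. They were at Nop17l with 81.0% in arsenite and 42.3% in Schneider's, and at the cohesin subunit gene SMC1 with 70.0% and 32.4%. The inositol phosphate kinase gene Ipk2 had 73.5% and 36.1%, and TM9SF4 67.6% and 31.8%. The site in the 5′ UTR of the kinase gene Pak3 had 66.1% and 30.8%. At Nop17l the arsenite replicates had 12 of 14, 13 of 14 and 9 of 14 reads edited, and the Schneider's replicates 11 of 19, 4 of 14 and 7 of 19, without overlap. At the other end were Lk6 with 19.4% in arsenite and 51.4% in Schneider's, Cdc42 with 44.4% and 69.8%, CG8230 with 18.5% and 42.9%, Hsc70-5, a mitochondrial Hsp70, with 30.3% and 54.1%, and CG9776 with 40.5% and 62.5%. At Lk6 the arsenite replicates had 4 of 16, 0 of 7 and 3 of 13 reads edited, and the Schneider's replicates 4 of 10, 6 of 12 and 8 of 13. In single cells none of these 5 was lower by more than 1 point, with differences of +2.1 at Lk6, +18.3 at Cdc42, -0.137 at CG8230, +10.3 at Hsc70-5 and +3.16 at CG9776.

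Single cells gave a comparison of arsenite with Schneider's that took no part in choosing the sites. Of the 867 sites, 851 were in the single-cell table. Where at least 20 reads were summed, the median share was 36.1% in arsenite (814 sites) and 22.1% in Schneider's (810 sites), against 9.3% and 2.44% at the other sites. The share was higher in arsenite at 696 of the 787 sites tested, with a median difference of 13.1 points, against 7.36 points over all 20143 sites tested. With a quasi-binomial model on the reads of each plate and Benjamini-Hochberg adjustment, 112 of the 787 (14.2%) were higher in arsenite and none lower, beside 12.7% higher and 0.0% lower over all sites tested. The share of calls is thus near that of all sites. Without adjustment, 253 were higher and 0 lower at a p under 0.05, beside 31.1% and 0.194%. Each plate alone gave a median difference of 12.0 points (433 of 534 sites higher) and 14.8 points (423 of 499). With the plate as a block, no site was called with the moderated dispersion, which rests on 1 residual degree of freedom (smallest adjusted p = 0.45). With the block and 1 dispersion common to all sites, 185 (23.5%) were higher, beside 23.9% of all sites tested. The fit without a block also ended with 1 dispersion for all sites (1.68). By limma on the shares no site was called either, nor any among all sites tested. At an unadjusted p under 0.05 by limma, 222 (28.2%) were higher and 7 lower. Over all 20143 sites 20.9% were higher and 62 sites lower. The calls therefore rest on how the spread between 2 plates is estimated, while the direction is common to both plates.

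The 5 sites with the smallest p were in scf, LanA, FASN1, Gp210 and ATPsyngamma. At scf, which encodes a calcium-binding protein of the endoplasmic reticulum, the arsenite plates had 77 of 113 and 69 of 95 reads edited and the Schneider's plates 59 of 155 and 62 of 159, a difference of 31.7 ± 5.44 points (SE, quasi-binomial model, adjusted p = 1.47e-05). Both arsenite plates were above both Schneider's plates. At LanA (3L:6208959, lysine to arginine) the arsenite plates had 82 of 208 and 103 of 208 and the Schneider's plates 58 of 248 and 51 of 227, a difference of 21.5 ± 4.03 points (adjusted p = 3.88e-05). At FASN1, a fatty acid synthase, arsenite had 54.0% and Schneider's 22.3%, a difference of 31.7 ± 5.75 points (adjusted p = 6.36e-05). At Gp210, a transmembrane nucleoporin, the shares were 47.2% and 19.3% (adjusted p = 9.98e-05), and at ATPsyngamma, the gamma subunit of ATP synthase, 48.4% and 27.2% (adjusted p = 0.000133). Over the alternatives run, the adjusted p of each of these 5 sites ran up to 0.45, reached with the plate as a block.

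The 112 called sites lay in 91 genes, of which 80 held 1 called site. All 5 sites of LanA, all 5 of LanB1, 4 of the 6 of LanB2 and all 4 of Gp210 were called. The laminin chains, which together form the main scaffold of basement membranes, had 14 of 16 called and a median difference of 21.4 points. They were singled out after their values were seen, and sites of a gene share its RNA. In the brains none of these 16 sites had more than 14 reads in Schneider's. The gene lists are to be read beside the 14.2% called among the strongly edited sites and the 12.7% among all sites tested. Of the 33 sites in cytoskeletal genes that could be tested, 2 were higher in arsenite, with a median difference of 14.4 points. Of the 28 in proteasome and ubiquitin genes 7 were (11.6 points), of the 28 in RNA-binding and granule genes 3 (12.6 points), of the 18 in vesicle trafficking genes 4 (21.6 points) and of the 9 in translation factors none (6.85 points).

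CG17018 and p120ctn, the genes with the most sites, had 1 called site each in single cells, beside 14.2% called among all strongly edited sites tested. At the site of CG17018 with the highest share arsenite had 48.1% and Schneider's 53.4%, a difference of -5.37 points that did not pass the test, and 1 of its 10 sites was called, with 38.6% in arsenite and 19.6% in Schneider's (adjusted p = 0.0364). At p120ctn 1 of 6 tested sites was called, with 46.4% in arsenite and 23.1% in Schneider's (adjusted p = 0.0282). Nipped-A had 52.2% in arsenite and 73.6% in Schneider's, on 46 and 72 reads, and did not pass the test.

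**Figure D4:**
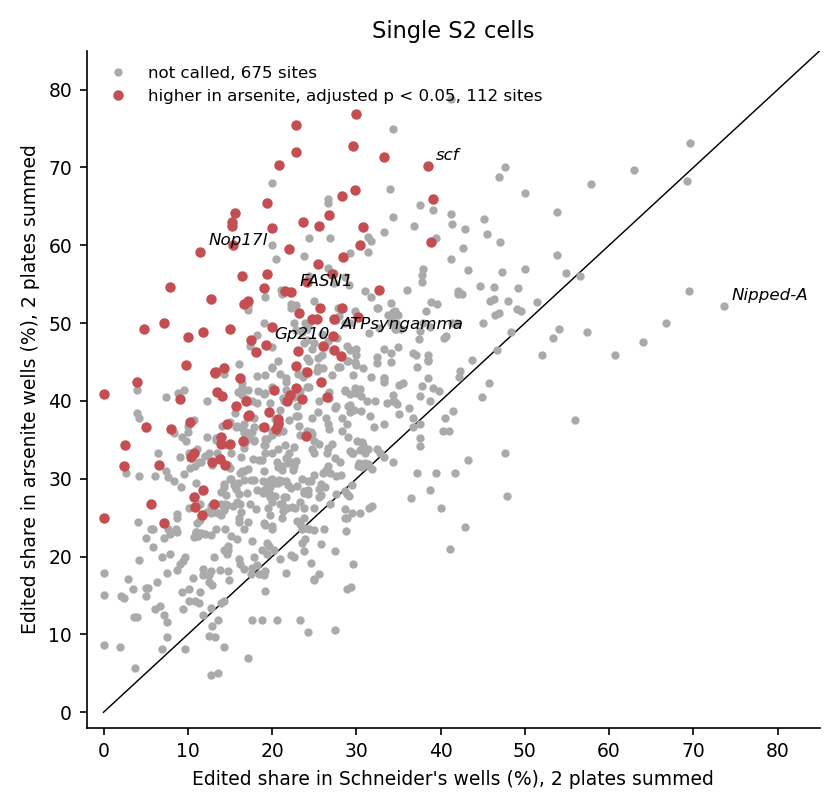
Edited share at 787 sites in single S2 cells in arsenite (vertical axis, percent) against Schneider's (horizontal axis, percent), reads of 2 plates summed. Red points are the 112 sites higher in arsenite at an adjusted p below 0.05, grey points the others, and the line marks equal shares. Most sites lie above the line, scf among the red points at 70.2% against 38.5%, and Nipped-A lies below it.

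Seen per cell, a median of 35 cells in each condition had a read at a site, and the median share of these cells with an edited read was 40% in arsenite and 25% in Schneider's, against 11.8% and 3.57% at the other sites. The reads per cell were similar, 1.63 in arsenite and 1.61 in Schneider's. The sites that stood between 10 and 20% in single cells in Schneider's differed by a median of 14.9 points from arsenite (244 sites), and other sites in that range by 9.15 points (2916 sites). Between 20 and 30% it was 13.5 points (272 sites) against 9.22 (1056 sites), and at 30% or more 7.44 points (193 sites) against 5.53 (803 sites). Below 5% it was 19.1 points (24 sites) against 6.67 (11008 sites), and between 5 and 10% 16.6 (54 sites) against 7.88 (3573 sites). The level is itself the share subtracted in the difference, and the strongly edited sites were chosen for a high bulk share. A reading that is low by counting error would widen the difference more at them, so equal levels do not make the sets alike. The larger medians of the strongly edited sites were not tested.

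The neighbouring base also went with the size of the share in libraries that did not choose the sites. Sites with T in front had a median of 48.6% in S2 arsenite, 38% in single-cell arsenite and 20.9% in brain arsenite, and those with A in front 45.1%, 33.8% and 18.6%. In Schneider's the medians of T and A were 23.1% and 19.6% in single cells, and 11.1% and 8.89% in brains. C in front lay between T and A in each of these except single-cell Schneider's, where it had 23.3%. Only 19 sites had G in front. These medians are given without a test.

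In the dissociated brains the sites were edited at a lower level. With at least 20 reads, 490 sites could be read in Schneider's, with a median of 10.4% (quartiles 4.76 and 18.4), and 499 in arsenite, with a median of 20% (11.1 and 28.6). At the other sites the medians were 3.51% in arsenite and 0.0% in Schneider's. No edited read was seen at 53 of the 490 in Schneider's (10.8%), against 55.5% of the other sites, and 23 sites reached 30%. All but 2 of the 490 had a lower share in brain Schneider's than in S2 Schneider's, and across these sites the shares correlated with a Pearson r of 0.34 and a Spearman coefficient of 0.33, as a description over 490 sites that come from the same libraries. The sites were chosen for a high S2 share. Sites chosen on 2 S2 replicates had 35.2 to 35.8% edited reads in the replicate left out, as given above.

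**Figure D5:**
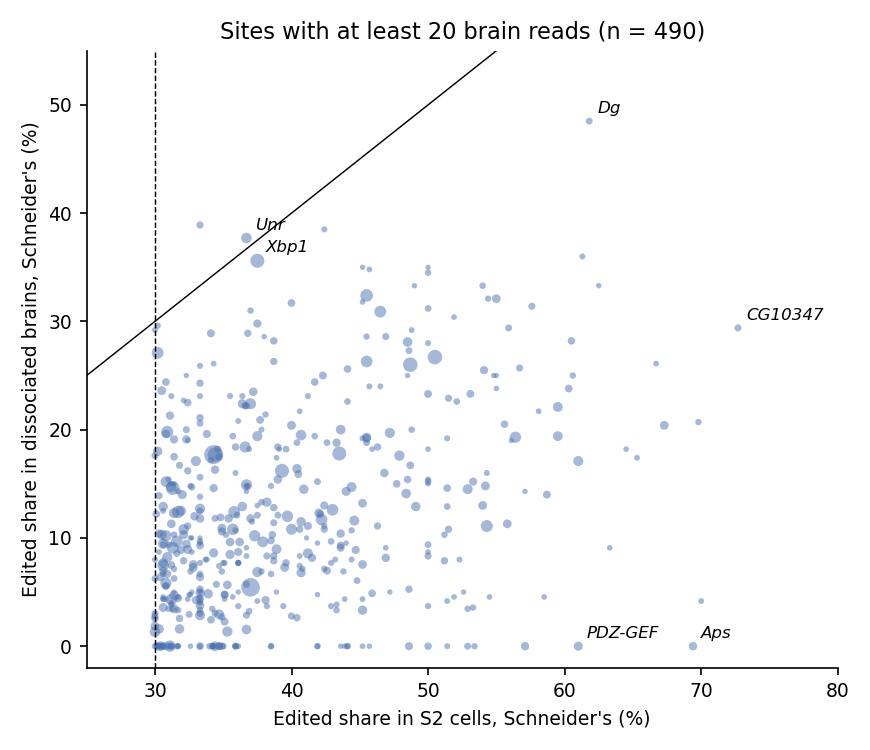
Edited share in brain Schneider's (vertical axis, percent) against S2 Schneider's (horizontal axis, percent) for the 490 sites with at least 20 brain reads. Larger points have more brain reads, the dashed line is the 30% limit of the choice and the solid line marks equal shares. Nearly all points lie below the line, with Dg highest at 48.5% and a row of sites at 0, among them Aps and PDZ-GEF.

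Among the sites with at least 30 reads in brain Schneider's, the highest shares there were at Dg, Syp, Unr, Xbp1 and TyrRS. At Dg, the dystroglycan receptor of the extracellular matrix, the brains had 6 of 11, 5 of 18 and 1 of 7 reads edited in arsenite and 8 of 18, 8 of 14 and 0 of 1 in Schneider's, 33.3% and 48.5%. Syp, an RNA-binding protein with a role at synapses, had 34.9% in arsenite and 38.9% in Schneider's, and Unr, an RNA-binding protein of translational control, had 26.2% and 37.7%. Xbp1, the transcription factor of the unfolded protein response, had 48.3% and 35.6%, on 120 and 135 reads. TyrRS, a tRNA synthetase, had 37.0% and 33.3%. Their S2 Schneider's shares were 61.8%, 33.3%, 36.7%, 37.5% and 54.0%, so that Syp and Unr were the 2 sites with a share in the brains at or above that in S2 cells.

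The lowest shares with the most reads were at CG1316, RanBPM, milt, PDZ-GEF and Aps, none of which had an edited read in brain Schneider's. CG1316 had 1.82% in brain arsenite and 0 of 91 reads in brain Schneider's, where up to 3.3% is allowed by a count of 0. RanBPM, a scaffold protein, had 11.6% in arsenite and 0 of 68 (up to 4.41%) in Schneider's. milt, the adaptor that links mitochondria to kinesin, had 0 of 53 in arsenite and 0 of 66 in Schneider's. PDZ-GEF, an exchange factor for Rap1, had 0 of 31 and 0 of 57, and Aps, a diphosphoinositol polyphosphate phosphohydrolase, 0 of 41 and 0 of 50. In S2 cells Aps had 65.8% in arsenite and 69.4% in Schneider's, and PDZ-GEF 54.5% and 61.0%, so that the same base was edited in most S2 reads and in no brain read.

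The share was higher in arsenite at most of these sites in the brains, and few passed the test singly. Of 419 sites tested, 342 had a higher share in arsenite, with a median difference of 8.25 points, against 4.0 points over all 11878 sites tested. By the quasi-binomial model with Benjamini-Hochberg adjustment, 6 of the 419 (1.43%) were higher and none lower, beside 1.09% higher and 0.0% lower over all sites, again near the background. Without adjustment 90 were higher and 3 lower, beside 17.4% and 0.236% of all sites. By limma none was called, nor any among all sites. Without adjustment 87 (20.8%) were higher by limma and 6 lower, beside 12.5% higher and 40 sites lower among all 11878. Without brain arsenite replicate 1, which had the highest share, none of 293 was called, beside 0.685% of all sites. There 53 (18.1%) were higher at an unadjusted p under 0.05, beside 14.7%. Without Schneider's replicate 1 or 2, 1 (0.38%) and 3 (0.993%) were called, beside 0.322% and 0.648%.

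The site with the smallest p was in AP-2alpha, a subunit of the clathrin adaptor (FBgn0264855, 2L:412007, codon position 3). The brains had 15 of 25, 9 of 25 and 7 of 24 reads edited in arsenite and 4 of 50, 4 of 28 and 1 of 21 in Schneider's, 41.9% and 9.09%. The groups did not overlap, and the difference was 32.8 ± 6.77 points (SE, quasi-binomial model, adjusted p = 0.000871, from 5.81e-05 to 0.627 over the alternatives). The same site had 49.2% in arsenite and 15% in Schneider's in single cells, and was the 1 site called in both. The others were in E(Pc), the Enhancer of Polycomb (51% and 12.0%, adjusted p = 0.0114), Clamp, a zinc-finger protein that binds GA repeats (49.3% and 17.6%, adjusted p = 0.0213), scra, the fly anillin (30%, against 0 of 37 reads in Schneider's, which allows up to 8.11%, adjusted p = 0.0226), Taf1 of the TFIID complex (52.1% and 14.6%, adjusted p = 0.0374) and lig, an RNA-binding partner of FMR1 (37.7% and 10.3%, adjusted p = 0.0416). Their adjusted p also ran up to 0.627, reached with the replicate number as a block.

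Of the 384 sites tested in both brains and single cells, 276 (71.9%) were higher in arsenite in both and 11 were lower in both. In brains alone 81.2% of the 384 were higher and in single cells alone 87.8%, which multiply to 71.3%, so that the count in both is near what these shares give without any link between the experiments. Over all 8217 sites tested in both, 73.0% were higher in both.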

How the data were processed

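VASA-seq libraries of S2 cells and dissociated larval brains were used as the authors deposited them, as variant tables that give each library's reads per base at every called position, after molecular identifiers were collapsed. Per the labels, reads were processed with cutadapt 3.2, BWA 0.7.17-r1188, STARsolo 2.7.7a, UMI-tools 1.1.1 and GATK 4.1.9.0 on BDGP6. Counts of edited and unedited reads were read from these deposited tables, and an edited share is edited reads over both, without other normalization. Among the listed libraries, 20 could not be mapped to a sample, and 384 wells held other treatments or no cell, and neither were used. Single-cell reads were summed per plate and condition.

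Sites were annotated with Ensembl 115 on BDGP6. The 3-base settings came from the variant table. A genome sequence was not used here, so base pairing around the sites, which had been planned, was not analysed.

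Arsenite was compared with Schneider's at each site by a two-sided quasi-binomial logistic model on the reads of each replicate, in R 4.3.3, with the dispersion moderated by limma 3.58.1 (squeezeVar) and not let below 1. A site was tested with at least 20 reads in each condition, at least 1 read in each sample and 1 edited read. P-values were adjusted by Benjamini-Hochberg over all A-to-G sites tested, with a threshold of 0.05. The labels do not say that replicates came from separate cultures or animals. The paper calls the brain samples biological triplicates and speaks of triplicate experiments for the bulk S2 cells. In both main fits the moderated dispersion came out the same at every site, 1.11 in brains and 1.68 in single cells. The p-values thus set a site's reads against a spread between samples that is common to all sites, not against its own. Per the labels each plate held both conditions, so the plates pair the single-cell samples; deviations of the same plate correlated at 0.025 across 18357 sites. Intervals are 95% Clopper-Pearson, a share of 0 carries a limit of 3 reads of the total, and both cover counting error only. Python 3.11.15 with numpy 2.4.6, pandas 2.3.3 and scipy 1.17.1 did the rest, and the model was tested on simulated reads. There it called 10% of the sites raised 2-fold and 31% of those raised 3-fold in brains. In single cells it called 17% and 57%. Of the unchanged simulated sites 0.0171% were called in brains and 0.0711% in single cells. The simulation gave every site the same extra spread and no shift of a whole library, and raised only sites with a share of at least 10%. The real brain arsenite replicates differed as wholes, so these rates need not hold for them.

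The sites, gene lists and named genes were chosen with earlier results of these data known. Named are the 10 sites with the highest share, the 5 genes with the most sites, the 5 largest and 5 smallest differences in S2 cells with at least 30 arsenite reads, the 5 highest and 5 lowest brain shares with at least 30 reads, up to 5 called sites with the smallest p per direction in brains and in single cells, 3 sites on each side of the limit, and 18 listed genes. lig and the laminin chains were named after their values were seen. Alternatives were other limits of quality, reads and share, a mean over replicates, Fmr1 and Adar left out, each replicate left out, limma on shares, Fisher's exact test, an unfloored dispersion and a replicate block.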

Additional observations from a re-analysis of the deposited data

Results flagged for a closer look

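Chance can give such patterns where many sites are compared, and none of the differences between brains and single cells below was tested. Of the strongly edited sites 384 were tested in both, and of all sites 8217. How many of the 8217 show such patterns is not given here. The sites below therefore cannot be set against a background, and nothing about the strongly edited sites as a set follows from them. At 2 sites every brain arsenite replicate lay below every brain Schneider's replicate while both single-cell arsenite plates lay above both Schneider's plates. At shep, an RNA-binding protein gene (3L:5163035), the brains had 0.0%, 0.0% and 0.0% in arsenite and 14.3%, 50% and 16.7% in Schneider's, on 21 and 26 reads, a difference of -23.1 points, and the single-cell difference was +18.8 points. At Rme-8, an endocytic chaperone gene (2R:9172682), the brains had 22.2%, 0.0% and 0.0% in arsenite and 25%, 33.3% and 28.6% in Schneider's, on 22 and 21 reads, a difference of -19.5 points, and the single-cell difference was +10.3 points.

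At 2 others the directions were the opposite. At Patronin, a gene of microtubule minus ends (2R:17520499), the brains had 53.8%, 38.1% and 26.7% in arsenite and 23.5%, 20% and 16.7% in Schneider's, a difference of +19.5 points, and the single cells 32.5% and 29.5% in arsenite and 46.9% and 39.1% in Schneider's, a difference of -11.0 points. At l(3)72Ab, a helicase gene of the spliceosome (3L:15962478), the brain difference was +8.61 points and the single-cell difference -9.04 points. The single-cell difference at shep passed the quasi-binomial test (32.5% in arsenite and 13.8% in Schneider's, adjusted p = 0.0436, from 0.00369 to 0.45 over the alternatives), and none of the 4 brain differences nor the other 3 single-cell differences did.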

How the results depend on the processing

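The number of sites follows the limits that define them. It was 228 with at least 50 reads, 1652 with at least 20, and 354 with a share of 40% or more. It was 308 to 376 without 1 S2 Schneider's replicate at an unchanged minimum of reads. By choices added after the data were seen, 295 had at least 10 reads in each uninduced sample and 386 were at 30% or more in each replicate. T stood in front at 49.7% with a share of 40% or more, at 48.7% with 30% in each replicate, and at 43.7 to 45.8% without 1 replicate. The median S2 difference between arsenite and Schneider's was 8.44 points with at least 50 reads. It was 8.07 with a share of 25%, 4.34 with 40% and 4.04 with 30% in each replicate. Leaving out 1 Schneider's replicate gave 6.28 to 7.34 points, and leaving out 1 arsenite replicate 7.67 to 8.79. In a replicate left out of the choice the difference was 10.3 to 13.1 points, on other sets of sites. The median brain Schneider's share was 12.0% with at least 50 reads, 8.91% with a share of 25%, 14.7% with 40%, 14.4% with 30% in each replicate, 10.5 to 10.6% without 1 S2 replicate, and 10.9 to 11.3% without 1 brain replicate.

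In brains limma on the shares called 0 sites, also among all sites. Leaving out 1 replicate gave 0 to 7, or 0.0 to 2.45% of those tested, beside 0.322 to 2.12% of all sites. Deviations of same-numbered brain samples correlated at 0.018, -0.018 and 0.056. This does not settle whether brain replicate numbers pair the samples, because the plates, which do pair them, gave only 0.025. The replicate block called 0 in brains and 0 in single cells, also among all sites. With 1 common dispersion, added later, it called 20 (4.77%) and 185 (23.5%), beside 3.26% and 23.9% of all sites. In single cells limma called 0, and Fisher's exact test on pooled reads, which ignores the spread between plates, 236. For 18 named calls at single sites, 6 in brains and 12 in single cells, 54 of 155 alternatives were no longer past the threshold and 0 were reversed. The call at lig held in 5 of 13 alternatives. Among the limits were depth, with a median of 40 reads at a site in S2 Schneider's, and the numbers of 3 brain replicates and 2 plates in each condition.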
